A study of Mus musculus with 78 samples.

Results

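Fatty acid uptake and oxidation were followed in mouse soleus through 41 genes. They were chosen by symbol for their known roles, with earlier results of these data known. All 41 were found among the 36904 gene IDs of the deposited table, and all 41 were among the 18218 genes left after a filter on low counts. Of these genes, 6 act in uptake (Cd36, Fabp3, Slc27a1, Slc27a4, Lpl, Angptl4) and 4 make or split acyl-CoA thioesters (Acsl1, Acsl6, Acot2, Acot13). Another 7 carry acyl groups on carnitine or set the rate of that step (Cpt1a, Cpt1b, Cpt2, Crat, Slc22a5, Acacb, Mlycd). The mitochondrial beta-oxidation spiral is covered by 11 genes (Acadvl, Acadl, Acadm, Acads, Hadh, Hadha, Hadhb, Echs1, Eci1, Acaa2, Decr1) and peroxisomal oxidation by 5 (Acad11, Eci2, Acaa1a, Hsd17b4, Ehhadh). The remaining members are 3 genes of electron transfer from the acyl-CoA dehydrogenases (Etfa, Etfb, Etfdh), the lipid droplet coat gene Plin5 with the mitochondrial carrier gene Ucp3, and 3 genes of ketone body use (Acat1, Oxct1, Bdh1).

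As background, slow oxidative muscle draws much of its energy from fat. Lipoprotein lipase releases fatty acids from blood lipoproteins, CD36 and the FATP proteins take them up, FABP3 carries them in the cytosol, and acyl-CoA synthetases activate them. Carnitine palmitoyltransferase 1 on the outer mitochondrial membrane commits them to oxidation and is held back by malonyl-CoA, after which each turn of beta-oxidation yields acetyl-CoA and passes electrons through ETF and its dehydrogenase to the respiratory chain. Many of these genes are known targets of the PPAR nuclear receptors, and muscle also burns ketone bodies made by the liver.

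The study sequenced soleus RNA from C57Bl/6 mice at 6, 12, 20 and 28 months of age. The labels F and M were read as female and male, and the label M28 as 28 months. In batch 1 there were 4 females and 6 males at 6 months, 6 and 6 at 12 months, 6 and 9 at 20 months, and 6 and 5 at 28 months. In batch 2 all mice were 28 months old: 7 females and 10 males on control feed, and 12 males fed CaAKG (calcium alpha-ketoglutarate, whose acid is a citric acid cycle intermediate) as 2% of the feed. All other groups ate the Teklad control feed, and no group carries an engineered allele. The 6- and 12-month mice came from Invivos in Singapore and the 20-month mice from the Jackson Laboratory, so that age and supplier cannot be told apart between them. The 28-month mice of the intervention arm were a separate intake, acquired at 17 months and randomised after 3 months to control feed or a compound. The labels do not say which 28-month libraries come from that intake.

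The 78 libraries held 19.5 to 81.6 times 1e6 counts each (median 35.2 times 1e6), and 2 libraries of 12-month females with the same animal tag were summed, which left 77 replicates. Values are CPM, counts per 1e6 of a library's size after TMM scaling, and p-values are from edgeR's quasi-likelihood test with Benjamini-Hochberg adjustment over the 18218 genes, with an adjusted p under 0.05 as the threshold. Sex-linked transcripts went against the label in 5 libraries: 6-month female replicate 3, 12-month female replicates 1 and 4, and replicate 3 of the 6-month and of the 12-month males. Summed keratinocyte markers exceeded 100 CPM in 5 libraries and neutrophil markers in 4, among them 28-month batch 1 female replicates 8, 10 and 12. These 14 libraries stayed in their labelled groups, and the calls that were lost without them are given with the counts below. The soleus label was checked on 9 slow-fibre markers, which summed to medians of 27280 to 44590 CPM across groups. Fewer cells of a type and less RNA per cell cannot be told apart in bulk RNA.

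Per kilobase of transcript and averaged over the 77 replicates, the highest member was Fabp3, the cytosolic fatty acid carrier of heart and muscle, at 2515 CPM per kb. Lpl followed at 489.6, Hadhb at 406, Acadm at 349.5 and Etfb at 345 CPM per kb. The muscle form of carnitine palmitoyltransferase 1, Cpt1b, stood at 162 CPM per kb and the liver form Cpt1a at 3.10. The lowest levels per kb were those of Ehhadh, a peroxisomal bifunctional enzyme, at 2.50 and Angptl4, a secreted inhibitor of lipoprotein lipase, at 2.18. Some members have near-identical copies among which the authors' counting could split reads. The pseudogene Fabp3-ps1 held a mean of 203 counts per replicate, Acot1, a close relative of Acot2, held 371, and Acaa1b, a close relative of Acaa1a, held 9.

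The start regions of Cpt1a, Acadm and Ucp3 are shown because they carry the half-site letters read by many nuclear receptors, and the stretch between Hadha and Hadhb because the pair start next to each other. Each is written 5′ to 3′ from RefSeq on GRCm38.p6 and leaves out annotated exons. The Cpt1a window lies inside the annotated gene, which begins at position 3322334. For Cpt1a, Acadm and Ucp3 the capitals mark AGGTCA, read on either strand (on the opposite strand it appears as TGACCT). The windows are Cpt1a at chr19:3323051-3323284 on the plus strand, Acadm, the medium-chain acyl-CoA dehydrogenase, at chr3:153944644-153944893 on the minus strand, and Ucp3 at chr7:100472741-100472989 on the plus strand. In the Hadha-Hadhb stretch, at chr5:30155163-30155247 on the plus strand, the capitals mark GGGCGG, the GC box, on either strand. It lies between the start sites of Hadha and Hadhb, the alpha and beta subunits of the trifunctional protein.
Cpt1a: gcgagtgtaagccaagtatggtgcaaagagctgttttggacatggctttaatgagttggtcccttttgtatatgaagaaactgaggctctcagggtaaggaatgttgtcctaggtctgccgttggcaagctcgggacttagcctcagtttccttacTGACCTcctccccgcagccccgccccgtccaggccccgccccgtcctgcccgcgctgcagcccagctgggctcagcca
Acadm: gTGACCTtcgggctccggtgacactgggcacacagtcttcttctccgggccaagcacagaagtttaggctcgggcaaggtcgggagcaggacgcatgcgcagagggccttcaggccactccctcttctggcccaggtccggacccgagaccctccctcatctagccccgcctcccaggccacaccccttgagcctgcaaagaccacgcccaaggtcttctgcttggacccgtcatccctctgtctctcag
Ucp3: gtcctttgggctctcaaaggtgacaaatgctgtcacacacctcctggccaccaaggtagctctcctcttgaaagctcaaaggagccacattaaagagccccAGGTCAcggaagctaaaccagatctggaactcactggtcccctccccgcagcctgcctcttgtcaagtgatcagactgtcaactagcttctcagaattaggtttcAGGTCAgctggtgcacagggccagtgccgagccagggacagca
Hadha-Hadhb: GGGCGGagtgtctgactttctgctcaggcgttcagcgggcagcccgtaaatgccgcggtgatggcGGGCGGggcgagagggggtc

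The RefSeq promoter table had entries for 32 of the 41 members, with 39 windows of 250 bases before to 50 after a start. AGGTCA lay in 10 of the 39 windows, belonging to 9 members (Acacb, Acadm, Acadvl, Acsl6, Cd36, Cpt1a, Echs1, Plin5 and Ucp3), against 16.3% of all 32851 windows. The spaced pair AGGTCANAGGTCA lay in 0 of the 39 windows and in 0.0396% of all windows. GGGCGG lay in 27 of the 39 windows, belonging to 23 members, and in 35.7% of all windows. These matches are letters in a window and not measured binding sites.

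Comparisons of 3 kinds held most of the changes: 20 against 6 months in both sexes, 28 against 6 months in females, and males against females at 28 months. From 6 to 20 months 5 members rose and 12 fell in females, where 18.2% of all genes rose and 17.8% fell. Lower members were thus more frequent than lower genes in the whole table and higher members less so, but their sum was near that of all genes (36.0% in either direction). In males 8 rose and 14 fell, against 22.6% and 22% of all genes (44.6% in either direction). All 17 members called in females were called the same way in males, which is 77.3% of the 22 called there. From 6 to 28 months in batch 1, 1 member rose and 18 fell in females, against 9.91% and 9.04% of all genes, and the median member was at a log2 fold change of -0.35 where the median of all genes was 0.09. In males over the same ages 4 rose and 2 fell, against 6.76% and 9.38% of all genes, with a median member of 0.06 (all genes 0.02). The male count was 3 without 6-month replicate 6. The members called the same way in both sexes over those ages were 3 (Acot13, Oxct1 and Cpt1a), which is 15.8% of the female list and 50.0% of the male list. From 20 to 28 months 2 members rose and 11 fell in females (17.3% and 12.6% of all genes, 29.9% in all), and 10 rose and 1 fell in males (8.25% and 8.78%, 17.0% in all). The steps from 6 to 20 and from 20 to 28 months share the 20-month libraries. Without the 14 libraries in doubt, 5 of the 13 female calls from 20 to 28 months held (Acaa1a, Acsl1, Cd36, Etfdh and Oxct1) and 4 others passed (Acsl6, Cpt1a, Eci2 and Mlycd). The calls of Lpl, Cpt1b, Hadha, Hadhb, Acacb, Bdh1, Etfb and Decr1 in that step were lost, at adjusted p of 0.063 to 0.2. From 6 to 20 months in females 15 of 17 calls held without them, Lpl and Acaa2 being lost, and in males all calls from 6 to 20, from 6 to 28 and from 20 to 28 months held. The male count from 20 to 28 months was 7 without 28-month replicate 11 or 20-month replicate 7 and 6 without 28-month replicate 12. Of the 11 calls, 6 held without each library. With offsets for transcript length and GC content only 1 of the 11 held, the rise of Eci2, where 2.44% of all genes passed.

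Between 6 and 12 months few members passed the threshold. In females 0 did by edgeR (0.231% of all genes; 1 member had an unadjusted p under 0.05, and DESeq2 called 0), and in males 1 rose and 2 fell (3.02% and 6.82% of all genes, 9.85% in all). The male calls were Cpt1a at 0.71 (SE 0.23, adjusted p = 0.038), Bdh1 at -0.57 (SE 0.17, adjusted p = 0.019) and Oxct1 at -0.53 (SE 0.16, adjusted p = 0.027), and for each of them the ranges of the groups overlapped. The male count was unstable to single libraries. It was 0 without 12-month replicate 2 or without 6-month replicate 6, it was 1 without 12-month replicate 1 or 6 or without 6-month replicate 2, and it was 6 without 12-month replicate 3, whose transcripts go against its sex label.

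**Figure D1:**
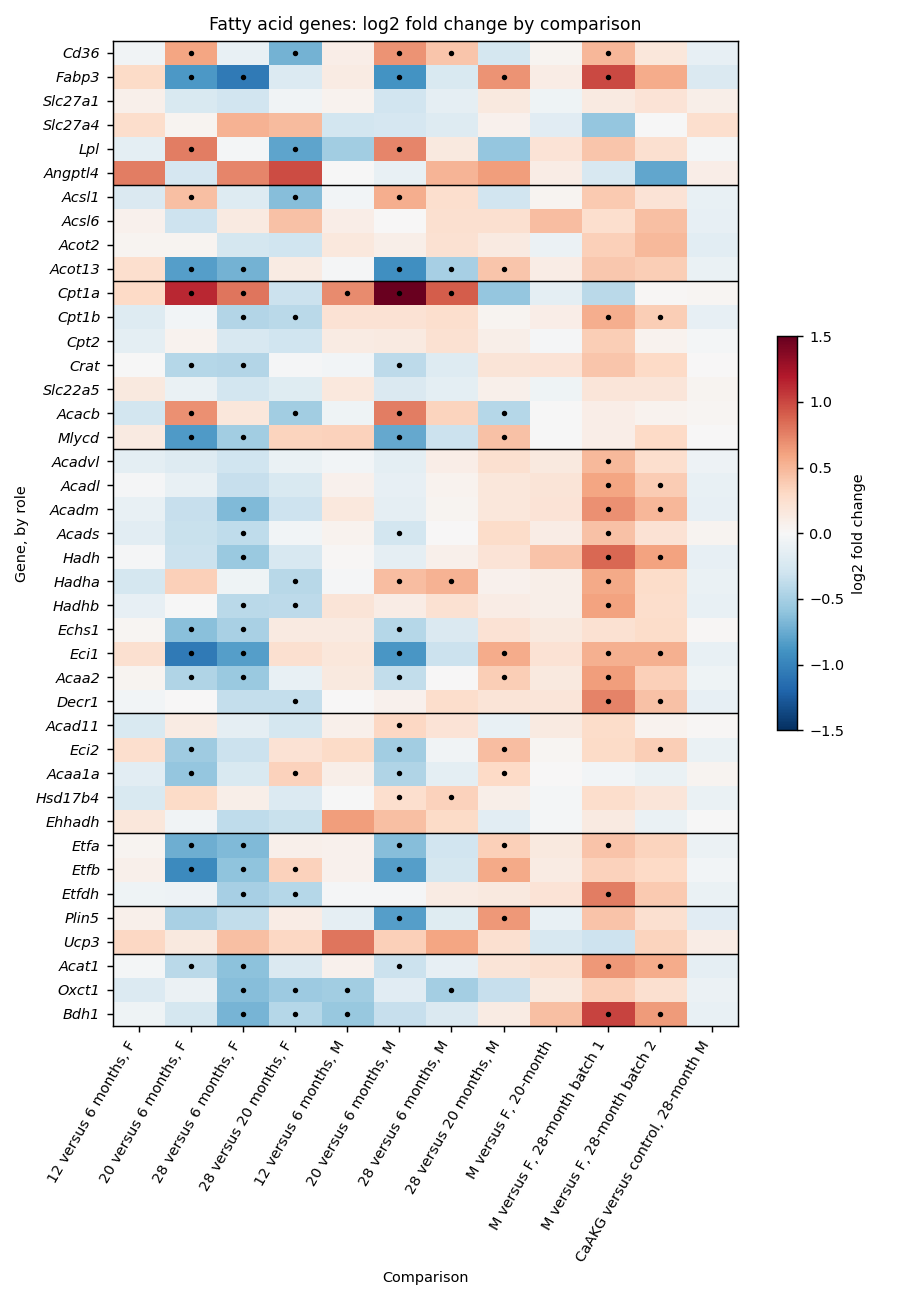
Log2 fold change of each of the 41 genes (vertical axis, ordered by role) in each comparison (horizontal axis), in colour, with a dot where the adjusted p was under 0.05. The columns for 20 against 6 months hold 17 dots in females and 22 in males, the columns for 28 against 6 months hold 19 and 6, and the CaAKG column holds 0.

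Among the uptake genes, those for capture at the vessel wall and membrane and the gene for cytosolic carriage went opposite ways at 20 months, though not past the threshold for Lpl and Fabp3 once offsets for transcript length and GC content were used. Cd36, the main fatty acid translocase (ENSMUSG00000002944, chromosome 5, 17781690 to 17888801 on mm10, as for all positions here), and Lpl rose in both sexes, while Fabp3 fell. Cd36 in females stood at 455, 465, 642 and 653 CPM at 6 months, 308 to 754 (median 541) at 12 months and 790.5 to 922 (median 832) at 20 months. Females at 28 months held Cd36 at 448 to 603 (median 505) in batch 1 and 491 to 856 (median 698) in batch 2. The male values of Cd36 were 379.8 to 629.5 (median 589) at 6 months, 455 to 767 (median 562) at 12 months and 732 to 955 (median 891) at 20 months, then 671, 720.1, 726, 727 and 767 at 28 months in batch 1, 629 to 864 (median 762) in batch 2 and 537 to 995 (median 685) on CaAKG. The 20-month Cd36 values stood above all 6-month values in both sexes.

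In tests, Cd36 rose from 6 to 20 months on the log2 scale by 0.60 (SE 0.15, adjusted p = 0.0013) in females and 0.67 (SE 0.13, adjusted p = 7.6e-06) in males. It then fell from 20 to 28 months in females, at -0.71 (SE 0.14, adjusted p = 7.6e-05), with ranges that did not overlap, and was at -0.26 (SE 0.13, adjusted p = 0.19) in males. Against 6 months, Cd36 at 28 months was 0.41 (SE 0.14, adjusted p = 0.036) in males, with ranges that did not overlap, and -0.11 (SE 0.15, adjusted p = 0.64) in females. The male rise to 28 months was lost without any 1 of 6 libraries, with the highest adjusted p (0.18) without 6-month replicate 1. Endothelial cells also express Cd36 and hold lipoprotein lipase at their surface. The sum of 9 endothelial markers was 147 to 344 (median 189.9) CPM in 6-month females, 564 to 721 (median 619.7) at 20 months and 114 to 398 (median 341) at 28 months in batch 1. In males these sums were 137 to 229 (median 174), 585 to 792 (median 657) and 304 to 426 (median 414). At 20 months 8 of the 9 markers had risen in each sex, and their part in the Cd36 and Lpl values was not tested.

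Lpl, lipoprotein lipase (ENSMUSG00000015568, chromosome 8, 68880491 to 68907448), moved like Cd36 to 20 months. The female libraries held Lpl at 848, 1339, 1613 and 1936 CPM at 6 months, 588 to 2832 (median 1096) at 12 months and 2020 to 2680 (median 2592) at 20 months. At 28 months Lpl ran 881 to 1797 (median 1437) in batch 1 females and 1486 to 2619 (median 2279) in batch 2 females. Males had Lpl at 1232 to 2272 (median 1590) at 6 months, 596 to 2324 (median 1049) at 12 months and 2302 to 3300 (median 2677) at 20 months, and then at 992, 1705, 2119, 2238 and 2288 at 28 months in batch 1, 2028 to 2936 (median 2432) in batch 2 and 1367 to 3527 (median 2263) on CaAKG. In both sexes the 20-month libraries lay above all those of 6 months. Lpl rose by 0.77 (SE 0.28, adjusted p = 0.022) from 6 to 20 months in females and by 0.73 (SE 0.22, adjusted p = 0.0054) in males. The female rise was lost without 6-month replicate 3, at an adjusted p of 0.16, and without replicate 4. With length and GC offsets Lpl was at 0.47 (adjusted p = 0.26) in females and 0.42 (adjusted p = 0.14) in males. Between 20 and 28 months Lpl fell in females, at -0.80 (SE 0.24, adjusted p = 0.0096) with all libraries and -0.59 (adjusted p = 0.065) without those in doubt, and was at -0.59 (SE 0.24, adjusted p = 0.08) in males. At 28 against 6 months it was at -0.03 (SE 0.27, adjusted p = 0.96) in females and 0.14 (SE 0.25, adjusted p = 0.78) in males. Adipocytes make Lpl too. The 10 adipocyte markers summed to medians of 3378, 3345 and 3626 CPM in females of 6, 20 and 28 months (batch 1), and to 2208, 3208 and 3371 in males. Their part in the Lpl values was not tested.

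Fabp3, the most abundant member per kb (ENSMUSG00000028773, chromosome 4, 130308595 to 130315463), was lower at 20 and 28 months. By age, Fabp3 in females read 1993, 2060, 3156 and 3991 CPM at 6 months, 1732 to 5401 (median 3329) at 12 months, 1353 to 1974 (median 1499) at 20 months, then 482 to 1954 (median 1406) in batch 1 and 881 to 1585 (median 1113) in batch 2 at 28 months. In males Fabp3 read 1856 to 4252 (median 3382) CPM at 6 months, 2158 to 4075 (median 3794) at 12 months and 1386 to 1965 (median 1636) at 20 months. The 28-month males had Fabp3 at 2385, 2683, 2713, 2738 and 2804 in batch 1, 1358 to 2152 (median 1740) in batch 2 and 980.5 to 1938 (median 1491) with CaAKG. The 20-month values lay below all 6-month values in females and overlapped them in males. Fabp3 fell from 6 to 20 months at -0.86 (SE 0.23, adjusted p = 0.0018) in females and -0.90 (SE 0.19, adjusted p = 4.6e-05) in males. With length and GC offsets these values were -0.06 and -0.13 and did not pass. At 28 months in batch 1 Fabp3 was lower in females, at -1.06 (SE 0.23, adjusted p = 0.0011) against 6 months, where the ranges did not overlap. In males it was at -0.23 (SE 0.22, adjusted p = 0.55) against 6 months and rose from 20 to 28 months by 0.67 (SE 0.20, adjusted p = 0.012). That rise did not pass with length and GC offsets. The batch 2 libraries gave -1.26 in females and -0.87 in males against 6 months, both past the threshold. The male libraries of batch 2 lay below all those of batch 1, though the batch difference of -0.64 (SE 0.19, adjusted p = 0.079) did not pass.

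Angptl4 (ENSMUSG00000002289, chromosome 17, 33773750 to 33781830) passed the threshold in no comparison, and single libraries stood far from the rest of their groups. Angptl4 in females stood at 2.44, 2.98, 4.65 and 15.4 CPM at 6 months, 2.82 to 25.2 (median 7.33) at 12 months and 3.05 to 11.7 (median 4.05) at 20 months. Females at 28 months held Angptl4 at 3.06 to 16.1 (median 12.1) in batch 1 and 5.11 to 16.6 (median 8.98) in batch 2. The male values of Angptl4 were 0.32 to 20.9 (median 3.97) at 6 months, 1.39 to 10.0 (median 6.45) at 12 months and 2.00 to 11.5 (median 4.52) at 20 months, then 2.12, 2.21, 3.03, 6.95 and 30.01 at 28 months in batch 1, 3.12 to 8.81 (median 5.66) in batch 2 and 1.85 to 12.2 (median 5.79) on CaAKG. The ranges of all ages overlapped. Its log2 fold changes from 6 to 28 months were 0.73 (SE 0.66, adjusted p = 0.46) in females and 0.51 (SE 0.60, adjusted p = 0.65) in males. The fatty acid transporters Slc27a1 and Slc27a4 did not pass in these comparisons either. Slc27a1 was at -0.29 (SE 0.16) in females and -0.14 (SE 0.15) in males, and Slc27a4 at 0.52 (SE 0.24) and -0.19 (SE 0.22). Slc27a4 ran 13.4 to 16.6 (median 15.5) CPM in 6-month females and 14.6 to 47.1 (median 17.2) in batch 1 females of 28 months.

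In activation, Acsl1, the main long-chain acyl-CoA synthetase of oxidative muscle (ENSMUSG00000018796, chromosome 8, 46471037 to 46536051), rose to 20 months and Acot13, a small mitochondrial acyl-CoA thioesterase, fell. The female libraries held Acsl1 at 440.1, 455, 518 and 587 CPM at 6 months, 229 to 660.1 (median 448) at 12 months and 556 to 792 (median 696) at 20 months. At 28 months Acsl1 ran 393 to 487 (median 436) in batch 1 females and 439 to 622 (median 553) in batch 2 females. Males had Acsl1 at 345 to 591 (median 482) at 6 months, 394 to 607 (median 420.4) at 12 months and 623 to 767 (median 712) at 20 months, and then at 484, 560, 608, 616 and 623 at 28 months in batch 1, 494 to 762 (median 624) in batch 2 and 452 to 702 (median 571) on CaAKG. The 20-month values lay above all 6-month values in males and overlapped them in females. Acsl1 rose from 6 to 20 months at 0.46 (SE 0.15, adjusted p = 0.0091) in females and 0.54 (SE 0.12, adjusted p = 0.0001) in males. It fell from 20 to 28 months in females, at -0.64 (SE 0.13, adjusted p = 0.00013), and was at -0.28 (SE 0.13, adjusted p = 0.12) in males. Against 6 months, 28-month Acsl1 was at -0.19 (SE 0.14, adjusted p = 0.37) and 0.26 (SE 0.13, adjusted p = 0.2). The 20-month rise in females did not pass without 6-month replicate 3 (adjusted p = 0.062), and in both sexes it turned negative with offsets for transcript length and GC content.

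Acot13 read 76.8, 94.7, 99.98 and 119 CPM in 6-month females, 51.05 to 57.9 (median 55.0) at 20 months and 45.4 to 81.95 (median 57.7) at 28 months in batch 1. The corresponding male values were 85.9 to 151 (median 107), 47.2 to 71.8 (median 60.9) and 73.98, 77.0, 79.8, 81.0 and 82.6. Acot13 fell to 20 months at -0.83 (SE 0.16, adjusted p = 1.5e-05) in females and -0.91 (SE 0.13, adjusted p = 1.2e-08) in males. With length and GC offsets Acot13 passed in neither sex over that step. At 28 against 6 months it had fallen in both sexes, at -0.71 (SE 0.16, adjusted p = 0.0014) with ranges that overlapped and at -0.50 (SE 0.15, adjusted p = 0.015) with ranges that did not overlap. The male call was lost without 6-month replicate 5 or replicate 6. The synthetase Acsl6 and the thioesterase Acot2 passed in no age comparison, with 28 to 6 month values of 0.13 and -0.26 in females and 0.24 and 0.23 in males.

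At the carnitine step, the calls differed between the 2 isoforms of carnitine palmitoyltransferase 1, and that difference was not tested. Cpt1a, the liver isoform and a minor one in this muscle (ENSMUSG00000024900, chromosome 19, 3322334 to 3385733), was higher at 20 and 28 months in both sexes. Cpt1b, the muscle isoform (ENSMUSG00000078937, chromosome 15, 89416405 to 89425863), was lower at 28 months in females. By age, Cpt1a in females read 7.00, 7.56, 9.05 and 12.1 CPM at 6 months, 7.89 to 20.9 (median 8.32) at 12 months, 16.7 to 24.4 (median 19.2) at 20 months, then 7.48 to 27.5 (median 14.2) in batch 1 and 11.4 to 16.02 (median 13.5) in batch 2 at 28 months. In males Cpt1a read 4.58 to 8.56 (median 6.14) CPM at 6 months, 8.28 to 13.1 (median 9.64) at 12 months and 14.7 to 22.2 (median 17.2) at 20 months. The 28-month males had Cpt1a at 9.70, 10.5, 11.2, 13.8 and 14.3 in batch 1, 9.46 to 20.4 (median 12.5) in batch 2 and 7.58 to 22.1 (median 12.9) with CaAKG. The 20-month values stood above every 6-month value in both sexes, all at low counts.

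Cpt1a rose from 6 to 20 months at 1.13 (SE 0.26, adjusted p = 0.00034) in females and 1.49 (SE 0.22, adjusted p = 4.1e-08) in males. From 6 to 28 months it rose at 0.81 (SE 0.26, adjusted p = 0.023) in females, with ranges that overlapped, and at 0.91 (SE 0.24, adjusted p = 0.006) in males, with ranges that did not overlap. Without the 9 libraries rich in skin or marrow transcripts, 3 of them batch 1 females of 28 months, the female value was 0.23 (adjusted p = 0.6). It was also lost without 28-month replicate 8 alone (adjusted p = 0.13), replicate 10 alone (adjusted p = 0.073), or any of 6-month replicates 2, 3 and 4. The male call held without each single library. At 28 months Cpt1a did not pass between batches, at -0.22 (SE 0.22) in females and 0.20 (SE 0.22) in males.

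Cpt1b in females stood at 417, 504, 517 and 545 CPM at 6 months, 273 to 548 (median 443) at 12 months and 432 to 514 (median 495) at 20 months. Females at 28 months held Cpt1b at 281 to 417 (median 384) in batch 1 and 296 to 485 (median 417) in batch 2. The male values of Cpt1b were 284 to 548 (median 473) at 6 months, 484 to 583 (median 501) at 12 months and 466.4 to 572 (median 522) at 20 months, then 461, 529, 546, 558 and 563 at 28 months in batch 1, 404 to 579.5 (median 511) in batch 2 and 358 to 564 (median 477) on CaAKG. The highest batch 1 female value at 28 months lay just under the lowest at 6 months. From 6 to 28 months Cpt1b fell in females at -0.44 (SE 0.13, adjusted p = 0.014) and in males it was at 0.26 (SE 0.12, adjusted p = 0.16). The female call was lost without 6-month replicate 2 (adjusted p = 0.057) or replicate 3 (adjusted p = 0.079). The step from 20 to 28 months in females was -0.41 (SE 0.12, adjusted p = 0.0075), and the step from 6 to 20 months was -0.04 (SE 0.13, adjusted p = 0.88). Without the libraries in doubt neither of the falls in Cpt1b passed, at -0.33 (adjusted p = 0.19) against 6 months and -0.31 (adjusted p = 0.077) against 20 months. Of the other genes of this step, Mlycd, which degrades malonyl-CoA, and Crat, which buffers short acyl groups on carnitine, fell from 6 to 20 months. Mlycd was at -0.84 (SE 0.18, adjusted p = 0.00013) in females and -0.77 (SE 0.15, adjusted p = 1.4e-05) in males, and Crat at -0.42 (SE 0.14, adjusted p = 0.015) and -0.39 (SE 0.12, adjusted p = 0.0049), the female Crat fall being lost without 6-month replicate 3 (adjusted p = 0.2). Acacb, the mitochondrial acetyl-CoA carboxylase that makes malonyl-CoA, rose over the same ages, at 0.69 (SE 0.18, adjusted p = 0.0011) and 0.76 (SE 0.14, adjusted p = 8.1e-06), and fell from 20 to 28 months at -0.52 (SE 0.15, adjusted p = 0.0083) and -0.42 (SE 0.15, adjusted p = 0.043). The second fall of Acacb was lost in females without the libraries in doubt (-0.30, adjusted p = 0.16), and in males without 28-month replicate 11 (-0.29, adjusted p = 0.23) or 12 or without 20-month replicate 5, 7 or 8. With length and GC offsets the 20-month Acacb values turned negative (-0.18 in females and -0.12 in males) and did not pass. Neither Acacb fall from 20 to 28 months passed with those offsets. Cpt2, the inner membrane transferase, and the carnitine transporter Slc22a5 passed in none of these, with 28 to 6 month values of -0.24 (SE 0.14) and -0.28 (SE 0.15) in females.

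In mitochondrial beta-oxidation 7 of 11 genes fell from 6 to 28 months in females and 0 rose (9.04% and 9.91% of all genes). In males 0 fell and 1, Hadha, rose (9.38% and 6.76%). Of the 7 female calls, only Acadm held without the libraries in doubt, and only Acadm and Eci1 held with length and GC offsets. The male Hadha call was lost with those offsets. Acadm (ENSMUSG00000062908, chromosome 3, 153922357 to 153944632) fell in females. The female libraries held Acadm at 688, 819, 893 and 893 CPM at 6 months, 431 to 1012 (median 749) at 12 months and 566 to 746 (median 638) at 20 months. At 28 months Acadm ran 353 to 685 (median 532) in batch 1 females and 389 to 689 (median 520.4) in batch 2 females. Males had Acadm at 581 to 979 (median 864) at 6 months, 811 to 1222 (median 871) at 12 months and 672 to 796 (median 758) at 20 months, and then at 773, 812, 839.8, 860.5 and 928 at 28 months in batch 1, 585 to 849 (median 720.5) in batch 2 and 505 to 821 (median 644) on CaAKG. The batch 1 female values at 28 months lay below all 4 values at 6 months, and the highest of batch 2 lay just above the lowest of them. Acadm was at -0.66 (SE 0.15, adjusted p = 0.0017) in females and 0.04 (SE 0.14, adjusted p = 0.92) in males. From 6 to 20 months it was at -0.34 (SE 0.15, adjusted p = 0.068) and -0.14 (SE 0.12, adjusted p = 0.39).

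Hadha, the alpha subunit of the trifunctional protein (ENSMUSG00000025745, chromosome 5, 30118304 to 30155162), is the long-chain enoyl-CoA hydratase and hydroxyacyl-CoA dehydrogenase of the spiral. By age, Hadha in females read 498, 558, 687 and 729 CPM at 6 months, 287 to 839 (median 471) at 12 months, 700.2 to 879.5 (median 791) at 20 months, then 372 to 735 (median 633) in batch 1 and 485 to 838 (median 659.5) in batch 2 at 28 months. In males Hadha read 449.6 to 733 (median 614) CPM at 6 months, 499.8 to 729 (median 565) at 12 months and 754 to 938 (median 849.6) at 20 months. The 28-month males had Hadha at 681, 907, 914, 934 and 959 in batch 1, 598 to 867 (median 806) in batch 2 and 537 to 928 (median 750.5) with CaAKG. Of the 28-month batch 1 males, 4 of 5 stood above every 6-month male. Hadha rose in males from 6 to 20 months at 0.46 (SE 0.14, adjusted p = 0.0039) and from 6 to 28 months at 0.53 (SE 0.16, adjusted p = 0.014). The second of these was lost without 6-month male replicate 1 (adjusted p = 0.068). In females it was at 0.35 (SE 0.17, adjusted p = 0.096) and -0.06 (SE 0.17, adjusted p = 0.83), and it fell from 20 to 28 months, at -0.41 (SE 0.15, adjusted p = 0.029). Its partner Hadhb, the thiolase subunit that starts across the printed stretch, fell from 6 to 28 months in females at -0.41 (SE 0.15, adjusted p = 0.041) and was at 0.22 (SE 0.14, adjusted p = 0.3) in males. From 20 to 28 months in females Hadhb fell at -0.40 (SE 0.13, adjusted p = 0.018). Without the libraries in doubt Hadha was at -0.39 (adjusted p = 0.082) and Hadhb at -0.36 (adjusted p = 0.078) over that step. Both calls were also lost without 28-month replicate 9 alone, at -0.30 and -0.28, and that of Hadha without replicate 8.

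Further falls from 6 to 28 months in females were Eci1, the enoyl-CoA isomerase for unsaturated chains, at -0.82 (SE 0.18, adjusted p = 0.00095), and Echs1, the short-chain enoyl-CoA hydratase, at -0.49 (SE 0.12, adjusted p = 0.0032). Eci1 read 276, 281, 391 and 449 CPM at 6 months and 137 to 294 (median 184) at 28 months in batch 1, with ranges that overlapped. Echs1 read 199, 201, 226 and 233 and 123.7 to 191 (median 148), with ranges that did not overlap. Hadh, Acaa2 and Acads also fell, at -0.55, -0.56 and -0.38. Without 6-month replicate 3 these last 3 and Hadhb no longer passed (adjusted p of 0.08 to 0.24), nor did Crat and Mlycd. Acadvl, Acadl and Decr1 did not pass, at -0.30, -0.34 and -0.35. In males Eci1, Echs1, Hadh and Acaa2 were at -0.32 (SE 0.17), -0.22 (SE 0.11), 0.07 (SE 0.14) and 0.00 (SE 0.14). Eci1 and Echs1 had fallen in both sexes by 20 months. Eci1 was at -1.06 (SE 0.18) in females and -0.87 (SE 0.14) in males, and Echs1 at -0.62 (SE 0.12) and -0.43 (SE 0.10). With length and GC offsets none of these 20-month falls passed. In males, from 20 to 28 months, Eci1 and Acaa2 rose by 0.55 (SE 0.15) and 0.37 (SE 0.13), the second being lost in 8 of 14 fits that left out 1 library (adjusted p up to 0.11, without 28-month replicate 12). Neither of these male rises passed with the offsets.

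**Figure D2:**
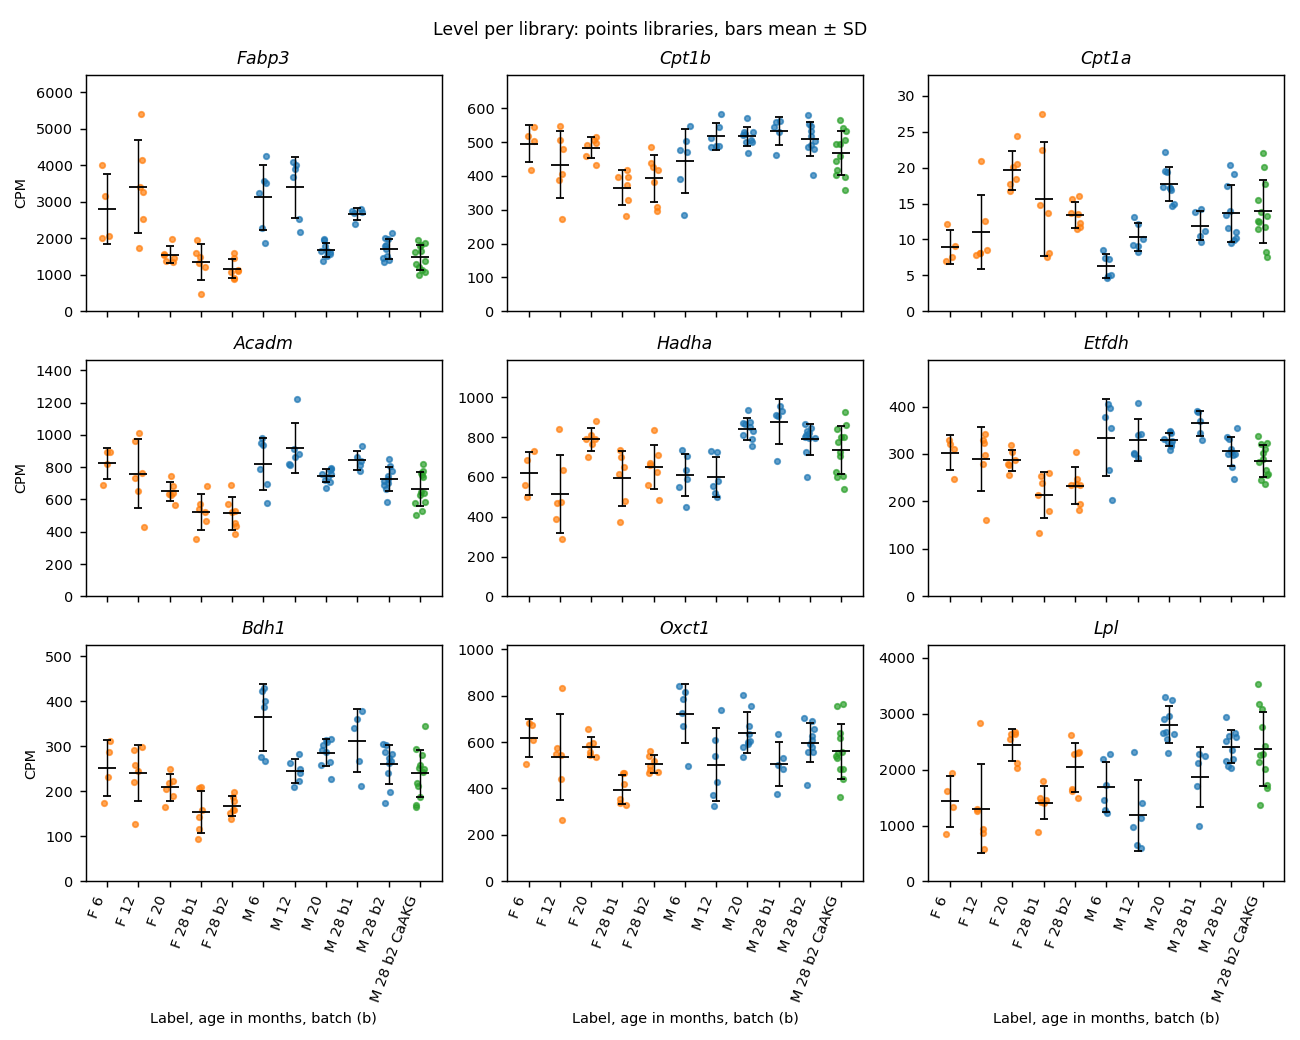
CPM of selected genes in every replicate (points) by group (horizontal axis), with the group mean and SD, for females (orange), males (blue) and males on CaAKG (green). Lpl at 20 months lies above all 6-month values in both sexes, and Fabp3 at 20 and 28 months lies below all 6-month values in females.

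Of the 5 genes of peroxisomal oxidation, 0 passed from 6 to 28 months in females by edgeR. In males Hsd17b4, the D-bifunctional protein, rose at 0.34 (SE 0.12, adjusted p = 0.035), a call lost in 9 of 11 fits that left out 1 library, with 0.24 (adjusted p = 0.18) without 6-month replicate 1. Acaa1a, a peroxisomal thiolase, fell from 6 to 20 months at -0.58 (SE 0.10) in females and -0.45 (SE 0.08) in males. Eci2, an enoyl-CoA isomerase, fell at -0.54 (SE 0.12) and -0.53 (SE 0.10). With length and GC offsets the Eci2 falls passed in both sexes and the Acaa1a falls in neither. Acad11 and Hsd17b4 rose in males at 20 months, by 0.32 (SE 0.10) and 0.25 (SE 0.10). Without 6-month male replicate 1 these were 0.17 (adjusted p = 0.17) and 0.16 (adjusted p = 0.25), and the Hsd17b4 call was lost in 11 of 15 fits that left out 1 library. From 20 to 28 months Acaa1a rose in both sexes, at 0.35 (SE 0.09) and 0.30 (SE 0.08), though with the offsets it passed in neither. Ehhadh, near the bottom of the measured range, passed in none of these comparisons.

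All 3 genes of electron transfer fell from 6 to 28 months in females, where 9.04% of all genes fell. With length and GC offsets none of the 3 calls held, and without the libraries in doubt only that of Etfa did. Etfdh is the dehydrogenase that hands these electrons to ubiquinone (ENSMUSG00000027809, chromosome 3, 79603788 to 79629500). Etfdh in females stood at 248, 311, 321 and 329 CPM at 6 months, 159.9 to 342 (median 311) at 12 months and 255 to 318 (median 283) at 20 months. Females at 28 months held Etfdh at 133 to 259.8 (median 227) in batch 1 and 182 to 303 (median 235) in batch 2. The male values of Etfdh were 202 to 406 (median 367) at 6 months, 290.5 to 407 (median 321) at 12 months and 309 to 348 (median 328) at 20 months, then 329.8, 345, 369, 389 and 390.1 at 28 months in batch 1, 247 to 354 (median 301) in batch 2 and 238 to 338 (median 287) on CaAKG. The batch 1 females of 28 months overlapped those of 6 months, and the male groups of batch 1 lay close together. From 6 to 28 months Etfdh fell in females at -0.50 (SE 0.14, adjusted p = 0.01) and was at 0.13 (SE 0.14, adjusted p = 0.61) in males. The female call was lost without 6-month replicate 3 (adjusted p = 0.067). At 20 against 6 months Etfdh was at -0.08 (SE 0.15, adjusted p = 0.74) and -0.02 (SE 0.12, adjusted p = 0.92), and it fell from 20 to 28 months in females at -0.43 (SE 0.13, adjusted p = 0.01), a call lost without 28-month replicate 9 (adjusted p = 0.054).

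The calls of Etfa and Etfb, the subunits of the electron transfer flavoprotein, differed from those of Etfdh, and that difference was not tested. Etfb read 363, 373, 469 and 479.5 CPM in 6-month females, 195 to 238 (median 222) at 20 months and 182 to 397 (median 252) at 28 months in batch 1. The male Etfb values were 309 to 516 (median 437), 195 to 284 (median 232) and 318, 327, 339, 369.6 and 400.5. Etfb fell from 6 to 20 months at -0.95 (SE 0.15, adjusted p = 4.5e-07) in females and -0.83 (SE 0.12, adjusted p = 4.8e-08) in males. Etfa fell at -0.73 (SE 0.13, adjusted p = 5.3e-06) and -0.64 (SE 0.11, adjusted p = 8e-07). None of these falls passed with length and GC offsets. From 20 to 28 months Etfb rose at 0.35 (SE 0.14, adjusted p = 0.048) in females and 0.57 (SE 0.13, adjusted p = 0.0014) in males. Neither rise passed with those offsets. The female rise was lost without the libraries in doubt (0.36, adjusted p = 0.063) and in 9 of 12 fits that left out 1 library, each of the 20-month libraries and 28-month replicates 10, 12 and 13, with 0.22 (adjusted p = 0.23) without replicate 13. Etfdh did not pass from 6 to 20 months in either sex, where both subunits fell. Against 6 months, 28-month females were still lower, at -0.66 (SE 0.13, adjusted p = 0.00054) for Etfa and -0.61 (SE 0.15, adjusted p = 0.0035) for Etfb.

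The droplet and uncoupling genes passed in few comparisons. Plin5, the coat protein of droplets that touch mitochondria, fell in males from 6 to 20 months at -0.83 (SE 0.17, adjusted p = 4.2e-05) and rose from 20 to 28 months at 0.65 (SE 0.18, adjusted p = 0.0078). With length and GC offsets the male fall passed and the male rise did not. In females Plin5 was at -0.48 (SE 0.21) and 0.12 (SE 0.19) over these steps. Ucp3, the muscle uncoupling protein whose start region is printed above (ENSMUSG00000032942, chromosome 7, 100472990 to 100486432), passed in no age comparison. The female libraries held Ucp3 at 46.9, 49.4, 65.0 and 93.0 CPM at 6 months, 32.7 to 133 (median 66.1) at 12 months and 50.4 to 111.2 (median 65.1) at 20 months. At 28 months Ucp3 ran 49.7 to 139 (median 80.2) in batch 1 females and 25.9 to 67.8 (median 45.7) in batch 2 females. Males had Ucp3 at 14.8 to 76.5 (median 46.5) at 6 months, 53.2 to 130 (median 76.2) at 12 months and 39.5 to 73.0 (median 65.4) at 20 months, and then at 45.2, 57.5, 67.2, 73.6 and 106 at 28 months in batch 1, 41.2 to 96.2 (median 53.3) in batch 2 and 31.3 to 109 (median 57.1) on CaAKG. All these ranges overlapped between ages within a sex. At 28 against 6 months Ucp3 was at 0.45 (SE 0.35, adjusted p = 0.37) in females and 0.59 (SE 0.32, adjusted p = 0.22) in males. It was lower in batch 2 than in batch 1 among 28-month females, at -0.88 (SE 0.29, adjusted p = 0.027).

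Genes of ketone use fell in females. All 3 were lower at 28 than at 6 months in females, and in males only Oxct1 passed, a difference between the sexes that did not pass its own test for any of them. Oxct1, succinyl-CoA transferase, the enzyme that lets a tissue burn ketone bodies (ENSMUSG00000022186, chromosome 15, 4026383 to 4155344), fell in both sexes. By age, Oxct1 in females read 504, 609, 673 and 682 CPM at 6 months, 265 to 832 (median 547) at 12 months, 537 to 655 (median 571) at 20 months, then 331 to 466.2 (median 386) in batch 1 and 465 to 563 (median 498) in batch 2 at 28 months. In males Oxct1 read 498 to 842 (median 755) CPM at 6 months, 323 to 739 (median 485) at 12 months and 534 to 803 (median 603) at 20 months. The 28-month males had Oxct1 at 377, 485, 499.7, 529 and 636 in batch 1, 414 to 703 (median 599) in batch 2 and 364 to 762 (median 547) with CaAKG. The batch 1 females of 28 months lay below all 6-month females, and the male ranges overlapped. From 6 to 28 months Oxct1 was at -0.64 (SE 0.18, adjusted p = 0.0084) in females and -0.52 (SE 0.17, adjusted p = 0.029) in males. The male call was lost without 28-month replicate 11 (adjusted p = 0.11) or without 6-month replicate 2, 5 or 6. Against 6 months the batch 2 libraries gave -0.29 (SE 0.17, adjusted p = 0.21) and -0.27 (SE 0.14, adjusted p = 0.13), past the threshold in neither sex.

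Bdh1, beta-hydroxybutyrate dehydrogenase (ENSMUSG00000046598, chromosome 16, 31422280 to 31458901), converts the main circulating ketone body. Bdh1 in females stood at 174, 232, 288 and 313 CPM at 6 months, 128 to 299 (median 252) at 12 months and 165 to 250.3 (median 213) at 20 months. Females at 28 months held Bdh1 at 94.6 to 209.7 (median 151) in batch 1 and 138 to 199 (median 159.5) in batch 2. The male values of Bdh1 were 267 to 430 (median 395) at 6 months, 209 to 284 (median 246) at 12 months and 228 to 317 (median 291) at 20 months, then 212, 269, 342, 362 and 379 at 28 months in batch 1, 174 to 305 (median 272) in batch 2 and 166 to 346 (median 247) on CaAKG. The female ranges at 6 and 28 months overlapped. Bdh1 fell in females from 6 to 28 months at -0.70 (SE 0.18, adjusted p = 0.0055) and from 20 to 28 months at -0.43 (SE 0.17, adjusted p = 0.043). In males it was at -0.22 (SE 0.18, adjusted p = 0.45) and 0.13 (SE 0.16, adjusted p = 0.69). The female fall from 6 months was lost without 6-month replicate 3 (adjusted p = 0.073). That from 20 months was lost in 7 of 12 fits that left out 1 library (-0.32, adjusted p = 0.15, without 28-month replicate 9). Acat1, mitochondrial acetoacetyl-CoA thiolase, fell at -0.62 (SE 0.13, adjusted p = 0.00095) in females and was at -0.13 (SE 0.13, adjusted p = 0.56) in males.

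**Figure D3:**
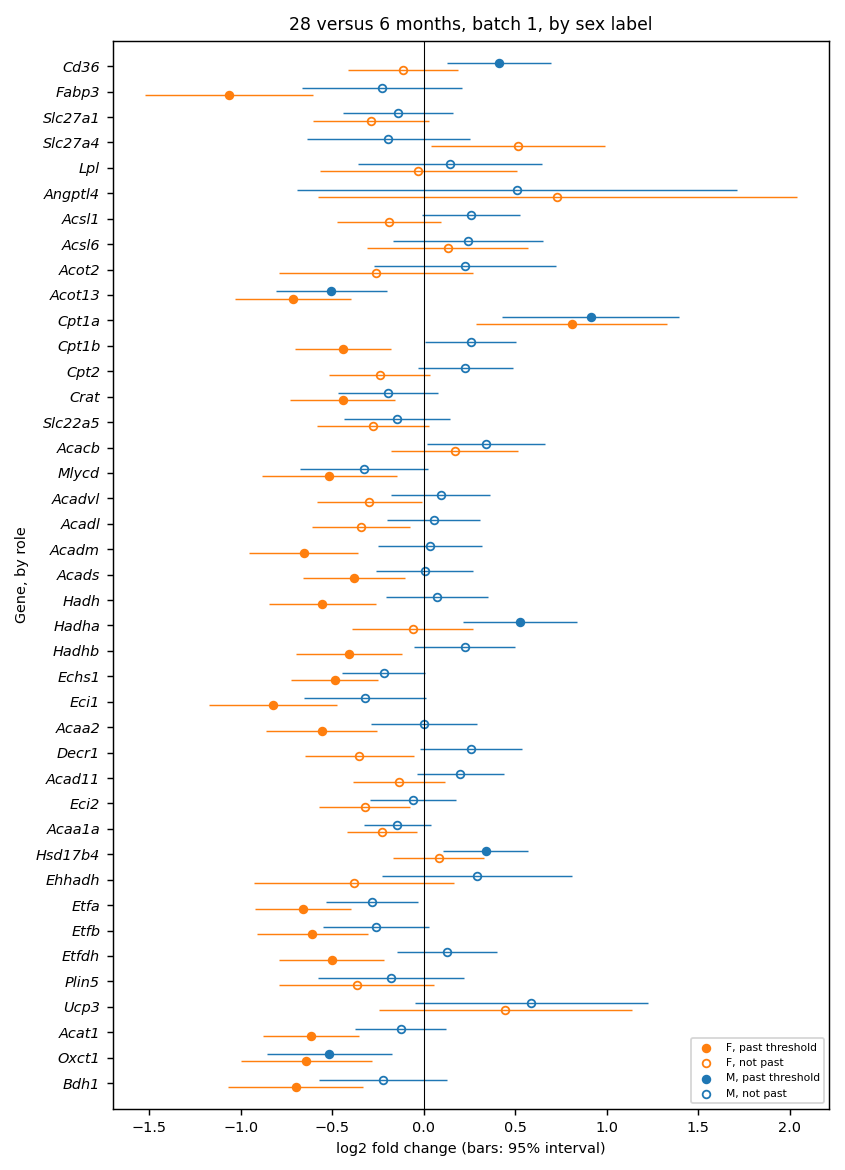
Log2 fold change from 6 to 28 months (batch 1) of each of the 41 genes, with 95% intervals, in females and in males, where filled points passed an adjusted p of 0.05. Most female points lie left of 0 (34 of 41) while male points lie on both sides (17 of 41 left of 0), and Fabp3 is the lowest female point at -1.06.

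Several limits bear on the female count of 18 lower and 1 higher. Fitted on the 6- and 28-month females alone, where 0 of all 15595 genes tested passed, the count was 0. Without 6-month replicate 3, whose transcripts go against its label, it was 9, and without all libraries in doubt it was 5 (Acadm, Acat1, Etfa, Fabp3 and Oxct1). Left-out single libraries gave 9 to 24 calls, and 9 members (Etfb, Acot13, Oxct1, Eci1, Echs1, Fabp3, Acat1, Etfa and Acadm) were called without each of them. The other 10 calls were each lost without at least 1 library, 6-month replicate 3 in every case. The median member stayed below 0 throughout, at -0.25 to -0.38 over the other settings and -0.43 to -0.28 with single libraries left out. Comparing the batch 2 females of 28 months with the batch 1 females of 6 months gave 22 lower and 0 higher (17.0% and 15.6% of all genes, 32.6% in all), and the same step in males gave 15 lower and 5 higher (18.7% and 18.7%, 37.4% in all). There batch and age cannot be told apart. The female count was 13 without 6-month replicate 3. With length and GC offsets the counts were 8 in each sex, where 14.9% of all genes passed in females and 21.2% in males. The neutrophil markers moved with the female batch 1 group: 14 of 14 were higher at 28 than at 6 months, with sums of 3.03 to 1356 (median 35.5) against 0.834 to 2.84 (median 1.08) CPM.

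The test of whether the step from 6 to 28 months differed between the sexes gave 0 members (0.329% of all genes), with 18 members at an unadjusted p under 0.05 and 1 called by DESeq2. The male step was the more positive for 39 of 41 members, with a median difference of 0.38 on the log2 scale (all genes -0.05). Cpt1b had a difference of 0.70 (SE 0.18, adjusted p = 0.056), Acadm 0.69 (SE 0.21, adjusted p = 0.1), Hadhb 0.63 (SE 0.20, adjusted p = 0.14) and Fabp3 0.83 (SE 0.32, adjusted p = 0.23). So no single member was shown to change differently in the sexes by edgeR.

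At 28 months the members were higher in males than in females, in libraries of each batch separately. In batch 2, 9 members were higher and 0 lower, where 0.917% of all genes were higher and 0.379% lower (1.3% in all). In batch 1, a comparison added after the data were seen, 17 were higher and 0 lower, against 1.81% and 3.84% of all genes (5.65% in all). The batches share no library. Called in both were 8 members (Acadl, Acadm, Acat1, Bdh1, Cpt1b, Decr1, Eci1 and Hadh), which is 88.9% of the batch 2 list and 47.1% of the batch 1 list. Of the 41 members, 35 were higher in males in both batches and 3 (Angptl4, Acaa1a and Slc27a4) were lower in both. The median member was 0.28 in batch 2 (all genes 0.04) and 0.40 in batch 1 (all genes -0.04).

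Hadh, the short- and medium-chain hydroxyacyl-CoA dehydrogenase, separated the sexes in both batches. In batch 1 it read 126 to 277 (median 220.1) CPM in females and 361, 362, 394, 401 and 410.3 in males, and in batch 2 158 to 238 (median 214) in females and 266 to 345 (median 303) in males. The male values lay above every female value within each batch, with log2 fold changes of 0.86 (SE 0.14, adjusted p = 8e-05) in batch 1 and 0.60 (SE 0.12, adjusted p = 0.0013) in batch 2. Bdh1 and Acat1, of ketone use, were higher in both batches too. Bdh1 was at 1.01 (SE 0.18, adjusted p = 0.00028) and 0.63 (SE 0.15, adjusted p = 0.0097), and Acat1 at 0.65 (SE 0.12, adjusted p = 0.0011) and 0.56 (SE 0.10, adjusted p = 0.00059). Acadm was at 0.69 (SE 0.14, adjusted p = 0.0026) and 0.50 (SE 0.12, adjusted p = 0.012), and Cpt1b at 0.54 (SE 0.12, adjusted p = 0.0069) and 0.37 (SE 0.10, adjusted p = 0.043).

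By role, beta-oxidation held most of these calls. In batch 1, 10 of 11 of its genes were higher in males (1.81% of all genes), and in batch 2, 5 of 11 were (0.917%). Decr1, which reduces dienoyl-CoA from polyunsaturated fats, was at 0.74 (SE 0.14) and 0.44 (SE 0.12), Acadl at 0.59 (SE 0.13) and 0.38 (SE 0.10), and Eci1 at 0.53 (SE 0.17) and 0.53 (SE 0.14). Etfdh was higher in males in batch 1, at 0.77 (SE 0.14, adjusted p = 0.00039), and at 0.39 (SE 0.11, adjusted p = 0.06) in batch 2. The uptake genes differed by batch in whether they passed, and that difference was not tested. Fabp3 and Cd36 were higher in batch 1, at 0.99 (SE 0.22, adjusted p = 0.0047) and 0.50 (SE 0.14, adjusted p = 0.029), and at 0.56 (SE 0.18, adjusted p = 0.11) and 0.16 (SE 0.12, adjusted p = 0.57) in batch 2. Lpl, Acsl1, Hadha and Oxct1 were at 0.24 (SE 0.21), 0.21 (SE 0.11), 0.28 (SE 0.13) and 0.24 (SE 0.14) in batch 2, without passing. Cpt1a, Ucp3 and Angptl4 were at 0.02 (SE 0.19), 0.34 (SE 0.26) and -0.77 (SE 0.48) there.

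**Figure D4:**
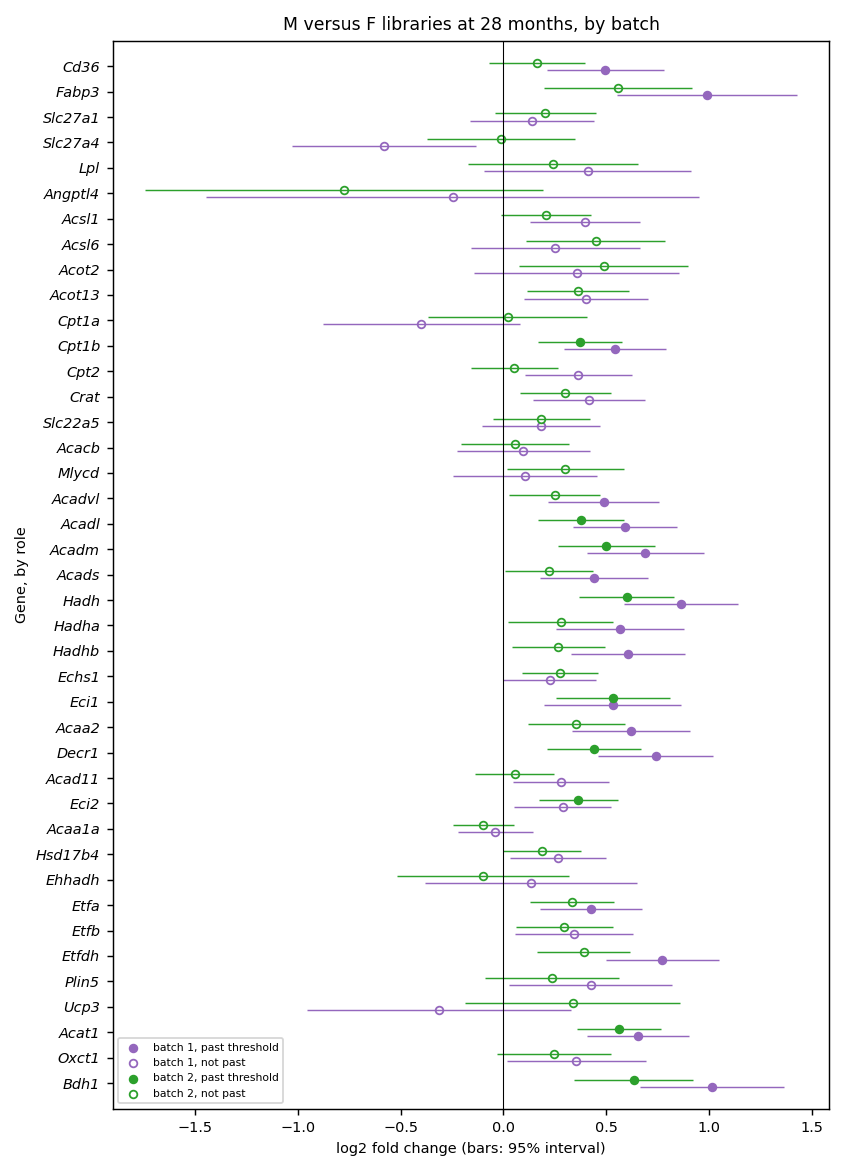
Log2 fold change of males over females at 28 months for each of the 41 genes, with 95% intervals, in batch 1 (purple) and batch 2 (green), where filled points passed an adjusted p of 0.05. Points of both batches lie right of 0 for 35 genes, and Hadh, Acat1 and Bdh1 are among the 8 filled in both.

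The batch 2 count was sensitive to single libraries, with 3 to 10 calls. It was 3 without female replicate 1 or 4, 4 without female replicate 6 or 7 or male replicate 2, 3, 4, 7, 9 or 10, and 5 without female replicate 2 or male replicate 8. Hadh, Acat1 and Bdh1 were called without each library. The calls were thus few and close to the threshold for most other genes. The count was 14 with those groups fitted alone, 4 with no filter on low counts, and 3 with length and GC offsets (Acat1, Bdh1 and Hadh). The batch 1 count was 11 without male replicate 12, 13 or 14, 12 without the libraries in doubt, 11 with no filter on low counts, 11 without those with skin or marrow transcripts, and 0 with the compared groups fitted alone. In batch 1, 10 of 12 keratinocyte and 13 of 14 neutrophil markers were lower in males, while in batch 2 the female sums of these markers were 3.43 to 8.41 (median 5.14) and 1.36 to 8.94 (median 2.38) CPM. Slow-fibre markers summed to 36970 to 47210 (median 41510) CPM in batch 2 females and 30420 to 39000 (median 33930) in batch 2 males. Myh2, of type 2A fibres, was at 4228 to 7935 (median 6198) CPM in those females and 4443 to 10650 (median 8578) in those males. The 8 markers of type 2X and 2B fibres summed to 10810 to 20750 (median 15200) and 19420 to 29540 (median 24780). Their part in the sex difference was not tested.

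At 20 months 0 members passed between the sexes by edgeR (0.22% of all genes, 0.137% higher and 0.0823% lower), 4 had an unadjusted p under 0.05, and DESeq2 called 0. Fitted on the 20-month groups alone, 5 members passed (Acat1, Acsl6, Bdh1, Etfdh and Hadh). The male over female values at 20 months were 0.42 (SE 0.12) for Hadh, 0.45 (SE 0.15) for Bdh1, 0.24 (SE 0.11) for Acat1 and 0.10 (SE 0.11) for Cpt1b, and 29 of 41 members were above 0 with a median of 0.12. Whether the sex difference changed between 20 and 28 months was not tested.

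Between the batches at 28 months, females had 1 member higher in batch 2, Cd36 at 0.41 (SE 0.13, adjusted p = 0.021), and 2 lower, Ucp3 (above) and Eci2 at -0.31 (SE 0.11, adjusted p = 0.036), against 6.75% and 13.0% of all genes (19.8% in all). In males 0 passed by edgeR (1.02% of all genes, 0.818% higher and 0.198% lower), with 14 at an unadjusted p under 0.05, and DESeq2 called 3. The female count ranged from 1 to 6 over left-out libraries, with 1 without batch 2 replicate 7, 5 without batch 2 replicate 2 or 3 or batch 1 replicate 8, and 6 without batch 1 replicate 9 or 11. The Ucp3 call was lost without the libraries in doubt.

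CaAKG in the feed was compared with control feed in 28-month males of batch 2. By edgeR 0 of 41 members passed (0.0659% of all genes), 0 had an unadjusted p under 0.05, and DESeq2 called 0. Log2 fold changes ran from -0.22 (Fabp3) to 0.25 (Slc27a4), with a median of -0.09, and for every member the ranges of the groups overlapped. Slc27a4 had a median of 14.4 CPM and a highest value of 52.2 on CaAKG, against a median of 14.7 on control feed. Keratinocyte or neutrophil markers exceeded 100 CPM in CaAKG replicates 6, 7, 8 and 10 and in control male replicate 4. Without all libraries over that limit 0 members passed as well, and 0% of all genes. The 95% intervals were -0.32 to 0.08 for Cd36, -0.53 to 0.09 for Fabp3, -0.30 to 0.05 for Cpt1b, -0.33 to 0.07 for Acadm, -0.32 to 0.08 for Hadh and -0.33 to 0.15 for Oxct1. For the low and variable Angptl4 the interval was -0.76 to 0.95. Changes beyond these bounds lie outside the intervals, and smaller ones were not detectable with these libraries. Lpl was at -0.03 (SE 0.18), Acsl1 at -0.12 (SE 0.10), Cpt1a at 0.03 (SE 0.17), Hadha at -0.10 (SE 0.11), Etfdh at -0.10 (SE 0.10), Ucp3 at 0.11 (SE 0.23) and Bdh1 at -0.12 (SE 0.12).

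Transcript length went with direction at 20 months. The members that rose from 6 to 20 months had a median length of 4317 bases in females and 4066 in males, and those that fell 1536 and 1660 bases. Over all genes that rose or fell the medians were 5369 and 1658 bases in females, and 5012 and 1795 in males. The members thus followed the split of the whole table. With offsets for length and GC content, 6 members passed in females and 10 in males, where 15.7% and 28.5% of all genes passed. The offsets remove any trend on length from each library. Acat1, Cd36, Cpt1a, Crat and Eci2 kept their calls in both sexes, and Mlycd and Plin5 also did in males. Cd36 and Cpt1a were then at 0.47 (adjusted p = 0.042) and 0.77 (adjusted p = 0.018) in females. Fabp3, 823 bases long, was at -0.06 (adjusted p = 0.9) in females and -0.13 (adjusted p = 0.63) in males under these offsets.

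**Figure D5:**
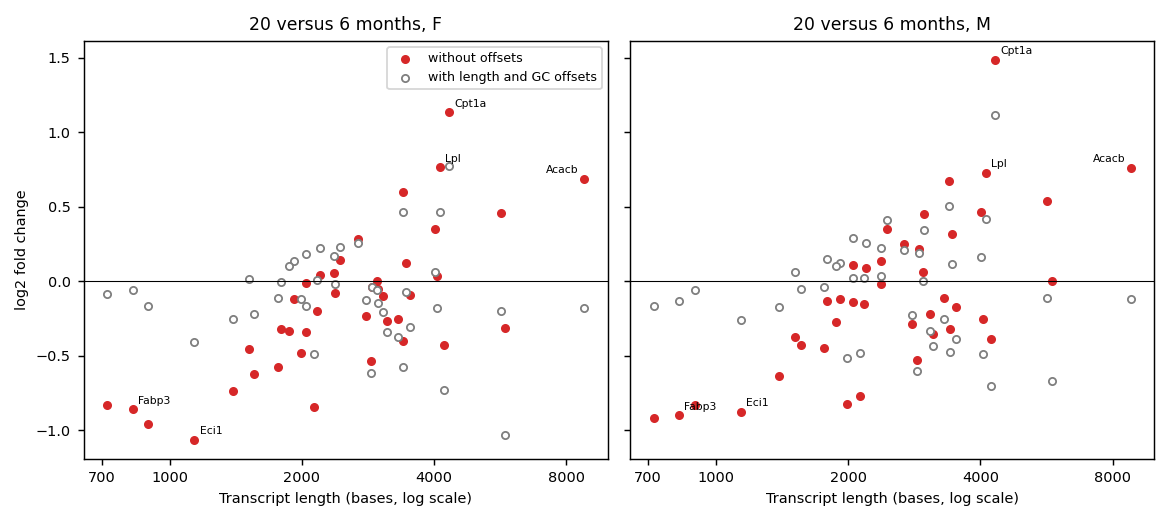
Log2 fold change from 6 to 20 months of each of the 41 genes (vertical axis) against transcript length in bases (horizontal log axis), in females and in males, without offsets (red) and with length and GC offsets (open grey). In red, short transcripts such as Fabp3 (823 bases) lie below 0 and long ones such as Acacb (8788 bases) above it in both panels.

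Another 50 genes of the same pathway, fixed as a list, were read beside the members. From 6 to 28 months 3 rose and 12 fell in females (9.91% and 9.04% of all genes) and 7 rose and 5 fell in males (6.76% and 9.38%). With length and GC offsets these counts were 2 and 3 in females and 5 and 2 in males. When the 6- and 28-month females were fitted alone, 0 of all 15595 genes tested passed. Without the libraries in doubt 7.32% of all genes passed in females. With the smallest p in females were Pex7, a peroxisomal import receptor, at -0.60 (SE 0.11), Hsd17b10, a branched-chain hydroxyacyl-CoA dehydrogenase, at -0.54 (SE 0.11), Phyh, which starts phytanic acid breakdown, at -0.59 (SE 0.15), and the uncoupling protein gene Ucp2 at 1.52 (SE 0.35). Neutrophil markers exceeded 100 CPM in 28-month batch 1 female replicates 10 and 12, and their part in the Ucp2 value was not tested. Among those with the smallest p in males were hormone-sensitive lipase Lipe at 1.04 (SE 0.23), monoglyceride lipase Mgll at 0.67 (SE 0.16) and the thioesterase Acot7 at -0.56 (SE 0.12). Lipe is also an adipocyte marker, and 6 of 10 adipocyte markers rose in those males. From 6 to 20 months 11 of the 50 rose and 13 fell in females (18.2% and 17.8% of all genes), and 15 rose and 18 fell in males (22.6% and 22%). The offsets gave 4 and 6 in females and 7 and 9 in males. In batch 2 at 28 months, the carnitine-acylcarnitine carrier Slc25a20 and the dienoyl-CoA isomerase Ech1 were higher in males, at 0.44 (SE 0.11) and 0.49 (SE 0.14), and acetyl-CoA carboxylase Acaca was lower, at -0.62 (SE 0.17). With CaAKG 0 of the 50 passed.

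Of 24 genes for PPAR receptors, their partners and related regulators, 8 rose and 2 fell from 6 to 28 months in females (9.91% and 9.04% of all genes), and 3 rose and 4 fell in males (6.76% and 9.38%). With length and GC offsets 5 rose and 2 fell in females and 1 rose and 2 fell in males. With only the 6- and 28-month females fitted, 0 of all 15595 genes tested passed. Without the libraries in doubt 7.32% of all genes passed in females over those ages. Ppard, the PPAR most tied to fat use in muscle, rose in females at 0.86 (SE 0.18, adjusted p = 0.00062), as did the forkhead factor Foxo1 at 1.28 (SE 0.31, adjusted p = 0.0025), while the mitochondrial deacetylase Sirt3 fell at -0.72 (SE 0.18, adjusted p = 0.0027). In males Foxo1 and Pparg rose, at 1.14 (SE 0.28, adjusted p = 0.003) and 1.11 (SE 0.28, adjusted p = 0.0039), and the partner receptors Rxrb and Rxrg fell, at -0.42 (SE 0.13, adjusted p = 0.018) and -0.83 (SE 0.26, adjusted p = 0.019). Pparg is also among the 10 adipocyte markers, which summed to medians of 2208 and 3371 CPM in those males at 6 and 28 months. The part of adipocytes in the Pparg value was not tested. Ppard was lower in males than in females at 28 months in both batches, at -0.76 (SE 0.16, adjusted p = 0.0036) in batch 1 and -0.52 (SE 0.13, adjusted p = 0.022) in batch 2. Skin also expresses Ppard, and 1 batch 1 female held abundant skin transcripts, a part that was not tested. The Ppard step from 6 to 28 months differed between the sexes, at -1.04 (SE 0.24, adjusted p = 0.029). At 20 months 16 of the 24 had risen from 6 months and 5 had fallen in females (18.2% and 17.8% of all genes), and 14 and 5 in males (22.6% and 22%). With the offsets 4 rose and 4 fell in females, and 3 rose and 6 fell in males. Without offsets, Ncor1 and Nrip1, which repress nuclear receptor targets, were at 1.15 (SE 0.19) and 1.22 (SE 0.20) in females and 1.03 (SE 0.16) and 1.10 (SE 0.16) in males.

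Fibre markers moved beside these counts. Of 9 slow-fibre markers 4 fell and 0 rose from 6 to 28 months in females and 2 fell and 0 rose in males. Their sum was 32950 to 54290 (median 41890) CPM in 6-month females and 23990 to 42760 (median 35320) at 28 months in batch 1, and 25470 to 41240 (median 36020) and 25240 to 39570 (median 33760) in males. Myh2, the myosin of type 2A fibres, had medians of 3956 and 5110 CPM in those females and 4649 and 8114 in those males. The 8 markers of type 2X and 2B fibres summed to 21200 to 36100 (median 23830) and 16630 to 66430 (median 25630) CPM in those females. In those males they summed to 24990 to 35290 (median 31350) and 20890 to 32710 (median 23970). The sum of 66430 CPM, in a batch 1 female of 28 months, was above those of all libraries in the other groups. At 20 months, females had 2 slow-fibre markers up and 4 down past the threshold, and males 2 up and 7 down. Brown fat, which expresses many of the same oxidation genes, is marked here by Ucp1, Cidea and Elovl3. Ucp1 was at 0 in 76 of 77 replicates. Cidea had group medians of 7.32 to 14.3 CPM and Elovl3 of 0.508 to 1.37 CPM, and the sum of the 3 had medians of 8.30 to 14.9 CPM. The part of fibre make-up in the members' values was not tested.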

How the data were processed

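Soleus RNA was sequenced in paired ends on an Illumina NovaSeq, per the labels' protocols. Per the submitters' processing notes, FastQC, STAR 2.7.11b and RSEM 1.3.3 were used with mm10. Their settings, the annotation release and the strand setting were not given in the sources used here. Expected counts, estimated by RSEM, were deposited by the authors in 1 table of 36904 gene IDs, where 8.99% of the values used were not whole (tolerance 1e-06). They were rounded. Of the table's columns, 55 matched no sample label and were not used. Symbols, positions and lengths came from GENCODE M21, which matched 35338 IDs and left 1566 without a symbol.

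Libraries of 1 animal tag were summed. One edgeR 4.0.16 quasi-likelihood fit (R 4.3.3, limma 3.58.1) on 11 group means used TMM factors and filterByExpr (minimum count 10, minimum total 15), which kept 18218 genes. Fold changes, standard errors, 95% intervals and adjusted p are from it, and the script was tested on simulated data. Alternatives were DESeq2 1.42.0, RLE factors, no filter on low counts, the mitochondrial genome left out, only the compared groups, offsets for length and GC (known for 97.5% of genes tested), a replicate block, libraries of 1 tag kept apart, and leaving out single or doubted libraries. Nothing in the labels says that replicates are separate mice beyond their names, so p-values measure the spread between these samples.

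Of the 41 members, the named ones in each comparison were up to 3 past the threshold with the smallest p per role and 13 genes followed in every group. From the 50 other pathway genes and the 24 regulators up to 4 with the smallest p were named, except for results not reported here. Members, lists and tests were chosen with earlier results of these data known. Totals of 19.5 to 81.6 times 1e6 counts leave members of a few CPM, such as Angptl4, imprecise.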

Additional observations from a re-analysis of the deposited data

Results flagged for a closer look

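Each of 13 genes was checked in the 10 groups of 4 to 10 replicates for a highest or lowest value standing far from the others of its group (Dixon's test at the 95% level). Of 130 checks 13 stood out, and chance alone marks about 1 in 20. Angptl4 accounted for 4, each a high value: 15.4 CPM in replicate 1 of the 6-month females, 11.7 in replicate 5 of the 20-month females, 20.9 in replicate 2 of the 6-month males and 30.01 in 28-month batch 1 male replicate 11. The last of these was 1 of 2 marked values in that library, where Hadha was low at 681 CPM. Fabp3 was high at 1974 CPM in 20-month female replicate 5, the library that was also high in Angptl4, and low at 2385 CPM in 28-month batch 1 male replicate 15.

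In 12-month female replicate 5, which held abundant keratinocyte transcripts, Cpt1a was high at 20.9 CPM and Etfdh low at 159.9 CPM. Lpl was high at 2832 CPM in 12-month female replicate 2 and Acadm at 1222 CPM in 12-month male replicate 5. In batch 2, Hadha was low at 598 CPM in 28-month male replicate 1 and Oxct1 at 414 CPM in 28-month male replicate 6. Whether skin transcripts or another property of a library set these values was not tested.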

How the results depend on the processing

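Counts of members past the threshold moved by over 1.5 times as follows. With length and GC offsets they were 6 for 20 against 6 months in females (15.7% of all genes) and 10 in males (28.5%). For 28 against 6 months they were 9 in females (9.04%) and 2 in males (8.82%). In males they were 1 for 12 against 6 (6.99%) and 1 for 28 against 20 months (2.44%). They were 3 for males against females in batch 2 (0.944%) and 0 for the batches in females (9.41%). With only the compared groups fitted they were 0 for 28 against 6 months (0% of all genes) and 7 for 28 against 20 months in females. In males they were 1 for 12 against 6 and 23 for 28 against 20 months. For the sexes they were 14 in batch 2 and 5 at 20 months, and for the batches 1 in females and 11 in males. With no filter they were 3 for 28 against 6 months in males and 4 for the sexes in batch 2. DESeq2 called 7 and 3 for the batches in females and males and 1 for sex by age, and RLE factors gave 5 for the batches in females. With libraries of 1 tag kept apart, 5 passed for the sexes in batch 2. For 28-month batch 2 libraries against 6 months, length and GC offsets gave 8 in each sex. For the sexes in batch 1, no filter gave 11 and the compared groups alone 0 (0.144% of all genes).

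Without the doubted libraries 5 members passed from 6 to 28 months in females, 6 from 6 to 12 months in males, and 5 and 2 between the batches. Alternatives added after seeing the data were these. Without the libraries against their sex label alone the counts were 9, 5, 5 and 1. Without those with skin or marrow transcripts alone they were 11 for 28 against 6 and 7 for 28 against 20 months in females. With batch 2 libraries 20 passed for 28 against 6 months in males, and with batch 1 libraries 17 between the sexes at 28 months.

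Leaving out single libraries gave 0 to 1 for 12 against 6 months in females (1 without 12-month replicate 2), 12 to 20 for 20 against 6, 9 to 24 for 28 against 6 and 9 to 15 for 28 against 20. In males the ranges were 0 to 6, 19 to 23, 3 to 6 (3 without 6-month replicate 6) and 6 to 11. Ranges were 0 to 0 for CaAKG, 3 to 10 between the sexes in batch 2, 0 to 0 at 20 months, 1 to 6 and 0 to 0 between the batches in females and males, and 0 to 1 for sex by age (1 without female replicate 11 or 13, 28-month male replicate 11 or 6-month male replicate 2 or 6).

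Of 103 single calls, none reversed with alternatives other than length and GC offsets. With those offsets 32 held, 61 kept their direction without passing, and 10 reversed. From 6 to 20 months these were Acsl1 at -0.20, Acacb at -0.18 and Acaa2 at 0.017 in females, and Acsl1 at -0.11, Acacb at -0.12, Acads at 0.11 and Acaa2 at 0.063 in males. From 20 to 28 months they were Etfb at -0.17 and Acaa1a at -0.0067 in females and Acacb at 0.061 in males. The cause was not tested.

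Same-numbered replicates did not deviate together (correlations over 0.1 in 3 of 10 pairs with CaAKG, in 1 of 3 for the sexes in batch 1, which is also 1 of 7 for sex by age, and in 0 elsewhere), so numbers only name samples. With a replicate block the counts were 0 for 12 and 18 for 20 against 6 months in females, and 3 and 20 in males. They were 0 with CaAKG, 8 between the sexes in batch 2, 0 at 20 months and 0 for sex by age. Between the sexes in batch 1, where 3 numbers are shared, 0 members passed in place of 17, against 0.0823% of all genes. No paired analysis was possible for 28-month batch 1 against younger mice or for the batches because those groups share fewer than 2 numbers, and the block fit reaches them only through other groups.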
